A study of Rattus norvegicus with 9 samples.

Results

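The genes described here encode the oxidative phosphorylation machinery of mitochondria, in cultured primary Schwann cells of the rat, the glia of peripheral nerves. They were chosen by a rule on gene names, set with earlier results of these data known. The rule takes a gene where its symbol begins with Nduf, Uqcr or Atp5, or with Cox followed by a digit of 4 to 8. It also takes Sdha, Sdhb, Sdhc, Sdhd, Cyc1 and Cycs. Only probe sets annotated to exactly 1 gene were used, and where a gene had several, the brightest on average was kept. This gave 87 genes of 14213 measured: 42 of complex I, 4 of complex II, 8 of complex III, 17 of complex IV and 16 of complex V.

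The cells came from sciatic nerve and fell into 3 groups of 3 biological replicates, 1 Affymetrix array each. The NF1 RNAi + U0126 group received RNAi oligonucleotides against Nf1, which encodes neurofibromin, a negative regulator of Ras, together with U0126, an inhibitor of the kinase MEK. The NF1 RNAi group received the same oligonucleotides without the inhibitor, and the Control RNAi group received scrambled oligonucleotides. All 3 groups were transiently transfected, and RNA was taken 48 hours later. NF1 RNAi against Control RNAi asks what changed when Nf1 was lowered, and NF1 RNAi + U0126 against NF1 RNAi asks what the inhibitor changed in those cells. Control cells given U0126 were not analysed here. Values are intensities in arbitrary units, and differences are on the log2(intensity + 1) scale with their standard errors.

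Oxidative phosphorylation couples the oxidation of nutrients to ATP synthesis in the inner mitochondrial membrane. Complex I takes electrons from NADH and complex II takes them from succinate, and both pass them to ubiquinone. Complex III hands them on to cytochrome c, and complex IV passes them to oxygen. Complexes I, III and IV pump protons, and complex V, the ATP synthase, uses the resulting gradient. Most subunits are encoded in the nucleus, and a few core ones in mitochondrial DNA.

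Of 120 protein-coding genes that the name rule finds in the rat gene table, 34 were without a probe set of their own and were not analysed. Among these, 12 were matched only by probe sets shared with another gene, such as Cycs (cytochrome c), Uqcrb, Atp5mc1, Atp5mc2, Cox7a2, Ndufa10 and Ndufs5. The 87 genes include 1 annotated pseudogene, Cox6c-ps1, and 6 complex I assembly factors. A log2 intensity of at least 6 in 3 or more arrays was reached by 82 of them. The other 5 (Cox4i2, Cox6b2, Cox7b2, Cox8b and Cox6c-ps1) were dim throughout. No source used here gives the probe sequences, so hybridisation to pseudogenes or related genes was not tested.

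The targeted transcript was measured first. Nf1 had intensities of 42.5, 51.7 and 40.9 in NF1 RNAi + U0126 cells, 41.1, 41.5 and 42.4 in NF1 RNAi cells and 99.3, 95.6 and 70.0 in Control RNAi cells. It fell in NF1 RNAi against Control RNAi (−1.05 ± 0.13, adjusted p = 0.000695), and the arrays of these groups did not overlap.

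Of 8 Schwann cell markers, 5 were measured, and all were above the dim range. Their summed intensity was 25712 to 26295 in NF1 RNAi + U0126 cells, 28909 to 29429 in NF1 RNAi cells and 17911 to 23243 in Control RNAi cells. In NF1 RNAi against Control RNAi the calcium-binding protein gene S100b rose (0.79 ± 0.07) and the other 4 did not pass, among them the transcription factor gene Sox10 (−0.02 ± 0.07). In NF1 RNAi + U0126 against NF1 RNAi, S100b (−0.38 ± 0.07), Erbb3 (−1.08 ± 0.22) and Gfap (−1.29 ± 0.32) fell. Control RNAi replicate 1 stood apart in 8 genes of G2 and mitosis, whose summed intensity was 386 to 462 in NF1 RNAi + U0126 cells and 433 to 563 in NF1 RNAi cells, against 5796, 1147 and 1189 in Control RNAi cells. Every Control RNAi sum was above those of the other groups. Of the 8, 5 fell in NF1 RNAi against Control RNAi (median −2.13), beside 13.3% of all genes. In NF1 RNAi + U0126 against Control RNAi 7 fell (median −2.45), beside 17.6%. The summed intensity of 9 fibroblast markers was 23047 to 30985 in NF1 RNAi + U0126 cells, 30439 to 31556 in NF1 RNAi cells and 37167 to 39162 in Control RNAi cells. The collagen genes Col1a1, Col1a2 and Col3a1 made up most of each sum, and the members did not move together. In NF1 RNAi against Control RNAi, Col3a1 (−2.06 ± 0.36) and Mfap5 (−1.83 ± 0.22) fell, Ogn rose (0.68 ± 0.17), and the median of the 9 was 0.12. Dcn, Lum and Pdgfra were dim on every array, though none was at 0. The summed intensity of 4 neuron markers was 1430 to 1795 in NF1 RNAi + U0126 cells, 527 to 1108 in NF1 RNAi cells and 2107 to 3896 in Control RNAi cells. The neurofilament gene Nefl made up most of it, falling in NF1 RNAi against Control RNAi (−2.25 ± 0.35) and rising in NF1 RNAi + U0126 against NF1 RNAi (1.28 ± 0.35), while Rbfox3 and Snap25 were dim. Another of the 4 was called higher in NF1 RNAi against Control RNAi, where the median of the 4 was 0.14. Macrophage, endothelial and adipocyte markers had sums below those of all these lists, and 1 gene among them passed, Cd68, which rose in both comparisons of U0126-treated cells (0.90 ± 0.12 against NF1 RNAi). The 3′ to 5′ difference of the actin control probe sets was 0.85 to 0.87 log2 units in NF1 RNAi + U0126 cells and 0.78 to 0.85 in NF1 RNAi cells. It was 0.90, 0.62 and 0.60 in Control RNAi replicates 1, 2 and 3, so that replicates 2 and 3 lay below all arrays with NF1 RNAi. The GAPDH control probe sets overlapped between groups. Their difference was −0.06 to −0.05 in NF1 RNAi + U0126 cells and −0.10 to −0.02 in NF1 RNAi cells. It was 0.06, −0.06 and −0.11 in Control RNAi replicates 1, 2 and 3. The part of cell cycle genes, the genes of these marker lists and RNA quality in the results below was not tested. In bulk RNA, fewer cells of a type and less RNA per cell cannot be told apart.

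NF1 RNAi cells showed a small set of lower oxidative phosphorylation transcripts amid many that moved little. Of the 87 genes, 17 fell and 2 rose against Control RNAi cells (limma, adjusted p under 0.05 over all genes). The genes that fell were 19.5% of the 87, beside 13.3% of all genes, and those that rose were 2.30%, beside 13.0% of all genes. In either direction 21.8% passed, beside 26.3% of all genes. With a filter at log2 6 in 3 arrays, 20 of the 82 genes left of the 87 passed, beside 37.7% of all 10159 genes left. The share of those 10159 genes that fell is not given. The arrays of both groups did not overlap for 36 genes, or 41.4%, beside 41.2% of all genes. The median difference was −0.06 over the 87 genes and 0.02 over all genes.

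By complex, the median difference was −0.04 in complex I, −0.07 in complex II, −0.17 in complex III, −0.03 in complex IV and −0.04 in complex V. The genes that fell were 8 of 42 in complex I, none of 4 in complex II, 3 of 8 in complex III, 2 of 17 in complex IV and 4 of 16 in complex V. The genes that rose were 1 of complex I and 1 of complex IV. Differences stayed within 0.25 log2 units for 71 of the 87 genes (81.6%), beside 68.5% of all genes. The spread within groups was also narrower, with a median SD of 0.08 over the 87 genes and 0.11 over all genes. Without Control RNAi replicate 1, 15 genes fell and 1 rose, with 25.4% of all genes passing in either direction. Without NF1 RNAi replicate 1, 11 fell and 1 rose, with 19.6% of all genes passing in either direction.

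**Figure D1:**
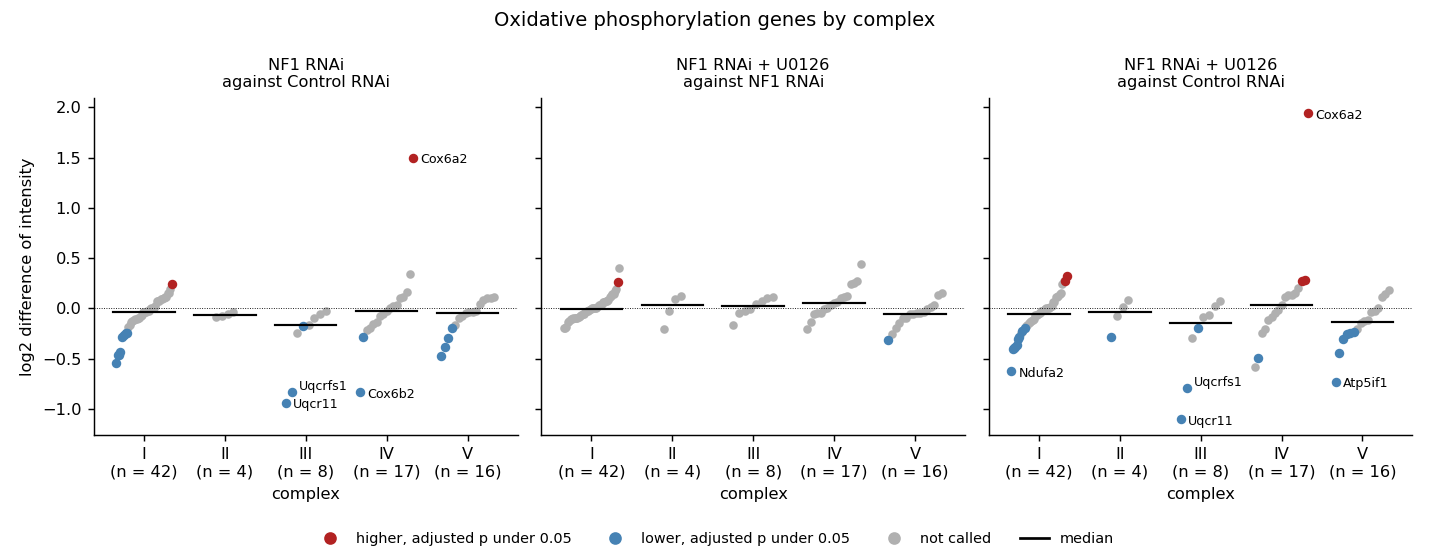
Each point is 1 gene, placed by complex (x axis) and by its log2 difference of intensity (y axis), for the 3 comparisons. Red and blue points passed the limma test upwards and downwards and bars mark medians, which lie between −0.17 and 0.05. Uqcr11 and Uqcrfs1 of complex III lie between −1.11 and −0.80 in both comparisons with Control RNAi, and Cox6a2 of complex IV lies at 1.50 and 1.94.

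Promoter sequences of the genes were read from RefSeq windows of rat assembly GRCr8, 250 bases before to 50 after each start, which matched 78 of the 87 genes. Binding motifs of factors known to act on respiratory genes were searched on both strands. The NRF1 core GCGCATGC was in 11.5% of these promoters, beside 4.40% of 11700 array genes. The ETS motif CCGGAAG, read by GABP, was in 28.2% beside 15.4%, and the YY1 motif AAGATGGC in 21.8% beside 4.87%. The cyclic AMP response element TGACGTCA was in 3.85% beside 2.93%. At least 1 of the motifs was in 37 of 78, or 47.4%, beside 24.3% of array genes and 14.7% of all 33469 windows. The ETS and YY1 motifs can share their AAG letters, and a match describes letters, not a bound site.

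By comparison group, 7 of 15 promoters of genes that fell in NF1 RNAi cells held a motif, beside 30 of 61 promoters of genes that were not called and 0 of 2 of genes that rose. The last 100 bases before the start are shown for 5 genes. They are 3 genes that fell (Uqcrfs1, Ndufs8 and Atp5po), a complex IV gene that was not called (Cox8a) and the gene with the largest rise (Cox6a2). Capitals mark letters of a motif match, and each line runs 5′ to 3′ on the strand of the gene.
Uqcrfs1 (GRCr8 chr17:34186502-34186601, plus strand): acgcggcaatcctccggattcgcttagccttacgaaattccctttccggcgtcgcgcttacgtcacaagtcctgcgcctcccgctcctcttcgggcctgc
Ndufs8 (GRCr8 chr1:210573699-210573798, minus strand): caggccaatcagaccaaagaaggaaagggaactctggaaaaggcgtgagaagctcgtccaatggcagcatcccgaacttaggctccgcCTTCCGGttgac
Atp5po (GRCr8 chr11:44657484-44657583, minus strand): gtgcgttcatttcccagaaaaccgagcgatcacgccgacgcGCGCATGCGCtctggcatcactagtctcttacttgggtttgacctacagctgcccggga
Cox8a (GRCr8 chr1:213833624-213833723, minus strand): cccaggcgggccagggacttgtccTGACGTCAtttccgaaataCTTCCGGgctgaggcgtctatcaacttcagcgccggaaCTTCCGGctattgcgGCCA
Cox6a2 (GRCr8 chr1:192219717-192219816, minus strand): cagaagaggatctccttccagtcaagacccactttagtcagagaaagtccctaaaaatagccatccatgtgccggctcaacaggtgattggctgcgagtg
The Ndufs8 stretch holds an ETS match, the Atp5po stretch NRF1 matches on both strands that overlap, and the Cox8a stretch a cyclic AMP response element, 2 ETS matches and the first 4 letters of a YY1 match that runs on past the start. None of the letters searched were found in the Uqcrfs1 and Cox6a2 stretches.

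Complex III held 2 of the 3 largest falls in NF1 RNAi cells. Uqcrfs1 encodes the Rieske iron-sulfur protein, which takes the first electron from ubiquinol. Its intensities were 2243, 2533 and 2170.4 in NF1 RNAi + U0126 cells, 2063, 2525 and 2186 in NF1 RNAi cells and 3993, 4079 and 3965 in Control RNAi cells. All NF1 RNAi arrays, with and without the inhibitor, lay well below all Control RNAi arrays. Uqcrfs1 fell in NF1 RNAi cells to 56.3% of the Control RNAi mean (−0.83 ± 0.09, adjusted p = 0.000257).

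Uqcr11, which encodes the smallest subunit of complex III, had 1019, 1018 and 1051 in NF1 RNAi + U0126 cells, 1127, 1224 and 1112 in NF1 RNAi cells and 2357, 2167 and 2135 in Control RNAi cells. The groups with NF1 RNAi again did not overlap with Control RNAi. The difference in NF1 RNAi against Control RNAi was −0.94 ± 0.06 (adjusted p = 3.82e-05). Cyc1, the cytochrome c1 that delivers electrons to cytochrome c, fell by a small step, with 2009, 2039 and 1939 in NF1 RNAi cells and 2342, 2222 and 2186 in Control RNAi cells (−0.17 ± 0.05, adjusted p = 0.0466). Its call was lost when any of the 9 arrays was left out (adjusted p up to 0.132) and with the replicate number as a block (adjusted p = 0.058).

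The other 5 genes of complex III did not pass, though all had differences below 0. They are the core proteins Uqcrc1 (−0.16 ± 0.05) and Uqcrc2 (−0.10 ± 0.05) and the small subunits Uqcr10 (−0.06 ± 0.07), Uqcrh (−0.03 ± 0.08) and Uqcrq (−0.25 ± 0.11). Uqcrq had 3156, 3112 and 2773 in NF1 RNAi cells and 4247, 3373 and 3169 in Control RNAi cells, and passed only with the replicate number as a block (adjusted p = 0.0344). Uqcrh, a subunit that helps complex III bind cytochrome c, had overlapping intensities of 4968, 4532 and 3955 in NF1 RNAi cells and 4784, 4561 and 4356 in Control RNAi cells.

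Complex I was split between a few lower subunits and a majority near 0. Of its 6 measured core subunits, which form the catalytic part conserved from bacteria, 2 fell. Ndufv1 binds NADH and the flavin that accepts its electrons. It had 1261, 1252 and 1175 in NF1 RNAi + U0126 cells, 1243, 1225 and 1134 in NF1 RNAi cells and 1629, 1629 and 1602 in Control RNAi cells. The Control RNAi arrays were tightly grouped and above all others, and Ndufv1 fell in NF1 RNAi cells (−0.43 ± 0.06, adjusted p = 0.000922).

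Ndufs8 carries iron-sulfur clusters on the path to ubiquinone. Its intensities were 690.3, 696 and 681 in NF1 RNAi + U0126 cells, 648, 685 and 650.2 in NF1 RNAi cells and 995, 892 and 849 in Control RNAi cells. It fell in NF1 RNAi cells by a similar amount (−0.46 ± 0.07, adjusted p = 0.00134), and no NF1 RNAi array overlapped with Control RNAi. The other core subunits did not pass, with differences of 0.15 ± 0.06 for Ndufs1, −0.04 ± 0.05 for Ndufs3, −0.16 ± 0.06 for Ndufs7 and 0.11 ± 0.06 for Ndufv2. Ndufs1, Ndufs7 and Ndufv2 also carry iron-sulfur clusters.

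Of the 30 accessory subunits of complex I, which surround the core, 4 fell and none rose in NF1 RNAi cells, with a median of −0.04. Ndufa2, an accessory subunit of the NADH-oxidising arm, had 1263, 1313 and 1426 in NF1 RNAi + U0126 cells, 1426, 1492 and 1328 in NF1 RNAi cells and 2196, 2052 and 1932 in Control RNAi cells. It had the largest fall in complex I (−0.54 ± 0.08, adjusted p = 0.00108). The membrane-arm subunits Ndufa11 (−0.29 ± 0.07) and Ndufb6 (−0.26 ± 0.06) and the junction subunit Ndufa9 (−0.24 ± 0.06) fell less. The Ndufa9 call was lost without NF1 RNAi replicate 3 (adjusted p = 0.0505).

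The other 26 accessory genes did not pass, with differences of −0.28 to 0.16. At the low end was Ndufb2, with 1727, 1666 and 1417 in NF1 RNAi cells and 2213, 1849 and 1783 in Control RNAi cells (−0.28 ± 0.10, adjusted p = 0.0779, or 0.0337 with the replicate number as a block). Ndufa4, a protein now assigned to complex IV although it is named for complex I, had 6620.0, 6048 and 5594 in NF1 RNAi cells and 6081, 5484 and 5286 in Control RNAi cells, which overlapped. Its relative Ndufa4l2, known for its induction by low oxygen, lay just above the dim range. It had 76.3, 70.0 and 90.4 in NF1 RNAi cells and 72.8, 81.5 and 67.1 in Control RNAi cells, and did not pass (adjusted p = 0.586).

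The 6 complex I assembly factors did not move together. Ndufaf4 and Ndufaf3 encode partners that act on the early ubiquinone-binding module. Ndufaf4 had 459, 495 and 493 in NF1 RNAi + U0126 cells, 382, 431 and 392 in NF1 RNAi cells and 459, 489 and 482 in Control RNAi cells. It fell in NF1 RNAi cells (−0.25 ± 0.07, adjusted p = 0.0232), while the inhibitor-treated arrays overlapped with Control RNAi. Ndufaf3 had 833, 819 and 847 in NF1 RNAi + U0126 cells, 819, 812 and 744 in NF1 RNAi cells and 629, 677 and 696 in Control RNAi cells. It rose in NF1 RNAi cells (0.25 ± 0.06, adjusted p = 0.0197).

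Ndufaf8, which stabilises the assembly factor Ndufaf5, had 374, 461 and 506 in NF1 RNAi + U0126 cells, 289, 383 and 343 in NF1 RNAi cells and 426, 474 and 497 in Control RNAi cells. It fell in NF1 RNAi cells (−0.47 ± 0.13, adjusted p = 0.0308). Its arrays were widely spread in every NF1 RNAi group. Ndufaf5 (−0.18 ± 0.08), Ndufaf1 (0.19 ± 0.14) and Ndufaf7 (−0.03 ± 0.07) did not pass. The calls of Ndufaf4 and Ndufaf8 were each lost without Control RNAi replicate 2 or 3 or NF1 RNAi replicate 1 or 3 (adjusted p up to 0.0827 and 0.102). The Ndufaf3 call was lost without replicate 1 of either group or NF1 RNAi replicate 2 (adjusted p up to 0.0708).

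Complex II, which also serves the tricarboxylic acid cycle, had no gene that passed in NF1 RNAi against Control RNAi. Sdha, the flavoprotein that oxidises succinate, had 1375, 1620.4 and 1559.8 in NF1 RNAi + U0126 cells, 1661, 1795 and 1773 in NF1 RNAi cells and 1839, 1806 and 1892 in Control RNAi cells. The NF1 RNAi and Control RNAi arrays did not overlap, by a small margin (−0.08 ± 0.07, adjusted p = 0.463). The iron-sulfur subunit Sdhb differed by −0.08 ± 0.09, and the membrane anchors Sdhc by −0.05 ± 0.06 and Sdhd by −0.04 ± 0.07. Sdhb intensities were 3544, 3720.0 and 3563 in NF1 RNAi cells and 3274, 3983 and 4255 in Control RNAi cells, so that the Control RNAi arrays enclosed the others.

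In complex IV the largest differences were in tissue-restricted isoforms. Cox6a2, the form of subunit 6a known from heart and skeletal muscle, had 213, 252 and 238 in NF1 RNAi + U0126 cells, 168, 184 and 163 in NF1 RNAi cells and 45.3, 70.5 and 67.9 in Control RNAi cells. Every NF1 RNAi array was above every Control RNAi array, and all inhibitor-treated arrays were higher still. Cox6a2 rose in NF1 RNAi cells (1.50 ± 0.15, adjusted p = 0.000229), from a Control RNAi mean of 5.93 log2 units, below the level of 6. Its widely expressed partner Cox6a1 had 5159, 4407 and 4235 in NF1 RNAi + U0126 cells, 5310.3, 4762 and 4221 in NF1 RNAi cells and 5094, 4653 and 4446 in Control RNAi cells, and did not pass (0.01 ± 0.11, adjusted p = 0.979).

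Muscle markers are given beside Cox6a2. Of 7 markers of skeletal and heart muscle, 6 were measured. Their summed intensity was 2477 to 2875 in NF1 RNAi + U0126 cells, 1544 to 2048 in NF1 RNAi cells and 1862 to 2015 in Control RNAi cells. The myosin gene Myh1 made up most of each sum, and Acta1, Ckm, Tnnt3, Myh2 and Myh7 were dim on every array, though none was at 0. None of the 6 passed in NF1 RNAi against Control RNAi, where Myh1 differed by −0.11 ± 0.11. Myh1 was higher in NF1 RNAi + U0126 against NF1 RNAi (0.60 ± 0.11, adjusted p = 0.007). The part of muscle genes in the Cox6a2 values was not tested.

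Cox6b2, the testis form of subunit 6b, was dim, with 26.2, 24.6 and 24.6 in NF1 RNAi + U0126 cells, 20.9, 19.3 and 22.9 in NF1 RNAi cells and 60.8, 33.7 and 27.3 in Control RNAi cells. Control RNAi replicate 1 was above all other arrays. Cox6b2 was called lower in NF1 RNAi cells (−0.84 ± 0.24, adjusted p = 0.0289), and the call was lost without any 1 NF1 RNAi array (adjusted p up to 0.0933). Without 1 array in turn the difference ran between −1.07 and −0.51. The other restricted forms did not pass, namely the lung form Cox4i2 (−0.22 ± 0.09), the muscle forms Cox7a1 (−0.15 ± 0.12) and Cox8b (0.03 ± 0.08), and the testis form Cox7b2 (−0.06 ± 0.07).

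Among 10 widely expressed complex IV genes, Cox5a alone passed. Its probe set is the least bright of the 10, though above the dim range. It had 135, 123 and 113 in NF1 RNAi + U0126 cells, 141, 139 and 149 in NF1 RNAi cells and 173, 169 and 182 in Control RNAi cells. Another Cox5a probe set, shared with a second gene, was not used. Cox5a fell in NF1 RNAi cells (−0.29 ± 0.07, adjusted p = 0.0194). The call was lost without Control RNAi replicate 3 or NF1 RNAi replicate 1 or 2 (adjusted p up to 0.0677).

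Cox5b, which binds zinc on the matrix side of complex IV, had 9810.0, 8412 and 7551 in NF1 RNAi + U0126 cells, 10363, 9524 and 8469 in NF1 RNAi cells and 7847, 7626 and 6907 in Control RNAi cells. All NF1 RNAi arrays were above all Control RNAi arrays, but the difference just missed the threshold (0.34 ± 0.11, adjusted p = 0.0511) and passed with the replicate number as a block (adjusted p = 0.00431). Cox4i1, a subunit that joins complex IV early in its assembly, had 7507, 7495 and 7067 in NF1 RNAi cells and 7285, 7609.7 and 7596 in Control RNAi cells (−0.03 ± 0.05). Cox6b1 (−0.07 ± 0.07), Cox7b (−0.20 ± 0.11) and Cox8a (0.11 ± 0.08) also did not pass. Cox7a2l, a factor that helps join complexes III and IV into supercomplexes, differed by −0.14 ± 0.10 without passing.

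In complex V, genes for the rotor ring, the stalk, the catalytic head and the inhibitor each contributed 1 fall. Atp5mc3 is 1 of the 3 genes that encode the identical c subunit of the proton-driven ring. It had 4706, 5254 and 5132 in NF1 RNAi + U0126 cells, 5077, 5427 and 5199.8 in NF1 RNAi cells and 7179, 6725 and 6620.1 in Control RNAi cells. All arrays with NF1 RNAi were below Control RNAi, and Atp5mc3 fell in NF1 RNAi cells (−0.39 ± 0.06, adjusted p = 0.00264).

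Atp5if1 encodes the inhibitor that stops the ATP synthase from running backwards. Its intensities were 1055, 1131 and 1117 in NF1 RNAi + U0126 cells, 1425, 1366 and 1176 in NF1 RNAi cells and 1827, 1872 and 1783 in Control RNAi cells, in 3 levels that did not overlap. It fell in NF1 RNAi cells (−0.47 ± 0.08, adjusted p = 0.00241). A pair of dimmer Atp5if1 probe sets did not pass in that comparison, with differences of −0.19 ± 0.09 and 0.06 ± 0.07.

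Atp5po encodes the stalk protein that confers oligomycin sensitivity. It had 2439.5, 2584 and 2526 in NF1 RNAi + U0126 cells, 2553, 2600.1 and 2422 in NF1 RNAi cells and 3317, 2972 and 3034 in Control RNAi cells, and fell in NF1 RNAi cells (−0.30 ± 0.06, adjusted p = 0.00789). A dim second probe set of Atp5po differed by 0.01 ± 0.08. Atp5f1b, the catalytic beta subunit, fell by a small step, with 6586, 6602 and 6267 in NF1 RNAi cells and 7600.2, 7317 and 7382 in Control RNAi cells (−0.20 ± 0.05, adjusted p = 0.027). That call was lost without any 1 array of these groups (adjusted p up to 0.0856). The other F1 subunits differed by −0.08 to 0.10 and did not pass. The 12 genes of complex V that did not pass lay between −0.16 ± 0.07 for Atp5me and 0.12 ± 0.09 for Atp5mk, both small membrane subunits. Atp5pb, a stalk subunit, differed by 0.10 ± 0.05.

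**Figure D2:**
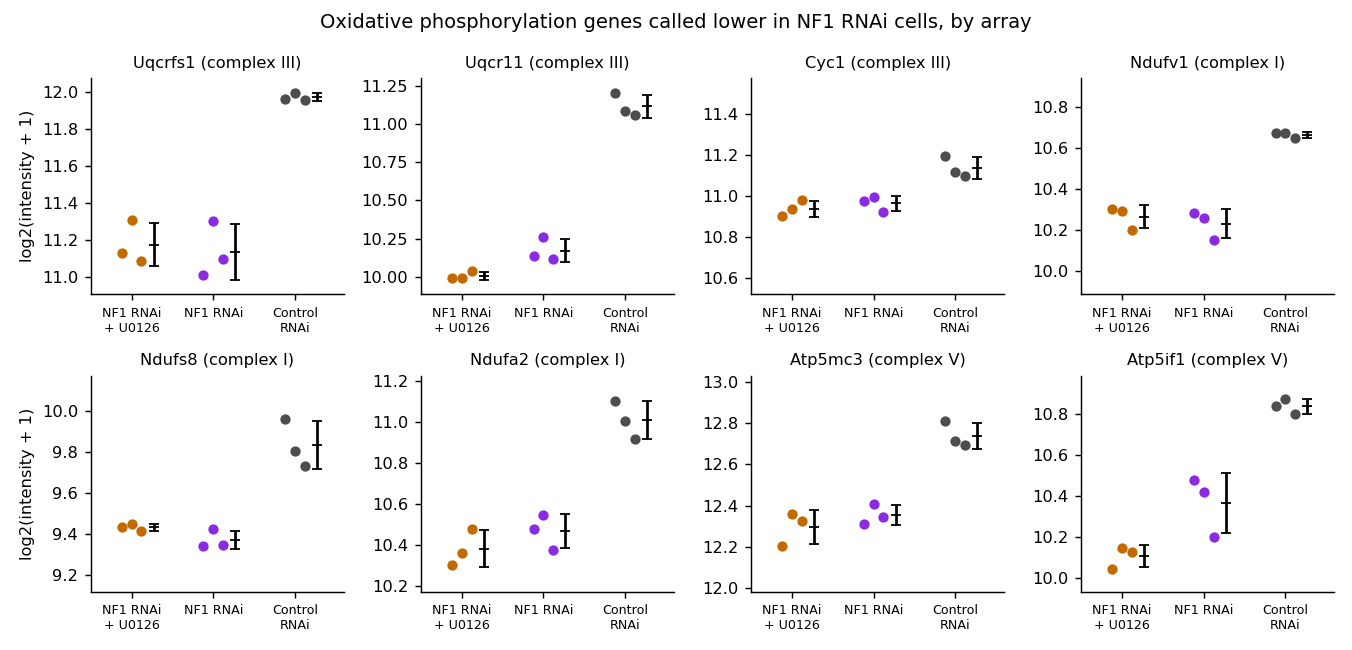
Intensities on the log2(intensity + 1) scale (y axis) of 8 genes that fell in NF1 RNAi cells, by group (x axis), with 1 point per array and the mean ± SD of 3 arrays beside it. For each of the 8 genes every NF1 RNAi array, with or without U0126, lies below every Control RNAi array. Axes differ between panels and do not start at 0.

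U0126 changed few oxidative phosphorylation transcripts in NF1 RNAi cells. Of the 87 genes, 1 rose and 1 fell in NF1 RNAi + U0126 against NF1 RNAi. These are 1.15% in each direction, beside 6.71% of all genes that rose and 7.02% that fell. In either direction 2.30% passed, beside 13.7% of all genes. The arrays did not overlap for 28 genes, or 32.2%, beside 33.9% of all genes. The median difference was −0.00 over the 87 genes and 0.02 over all genes, and 92.0% of the 87 stayed within 0.25 log2 units, beside 77.8% of all genes. With the replicate number as a block, 4 genes rose and 3 fell, beside 19.6% of all genes that passed in either direction. Without NF1 RNAi replicate 3, 3 genes fell and 0 rose, beside 9.51% of all genes that passed in either direction.

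The gene that rose was Ndufaf4 (0.26 ± 0.07, adjusted p = 0.0295), whose intensities are given above. Its call was lost without NF1 RNAi replicate 1 or 3, or NF1 RNAi + U0126 replicate 2 or 3 (adjusted p up to 0.099). The gene that fell was Atp5pf, coupling factor 6 of the ATP synthase stalk. It had 2097, 2149 and 2123 in NF1 RNAi + U0126 cells, 2657, 2751 and 2541 in NF1 RNAi cells and 2548, 2467 and 2467 in Control RNAi cells. The inhibitor-treated arrays were below all others (−0.32 ± 0.05, adjusted p = 0.00483).

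A further 5 genes passed only with the replicate number as a block. Ndufaf8 (0.40 ± 0.13, adjusted p = 0.0838, or 0.0104 with the block) was higher in each numbered NF1 RNAi + U0126 array than in the NF1 RNAi array of the same number. Cox6a2 (0.44 ± 0.15, adjusted p = 0.0954, or 0.0325 with the block) had inhibitor-treated arrays above all NF1 RNAi arrays. Cox7a2l had 5955, 5286 and 4831 in NF1 RNAi + U0126 cells and 4942, 4448 and 3904 in NF1 RNAi cells (0.27 ± 0.10, adjusted p = 0.122, or 0.0161 with the block). These 3 had higher values with U0126. Atp5if1 (−0.26 ± 0.08, adjusted p = 0.0576, or 0.0479) and the membrane subunit Atp5mf (−0.19 ± 0.06, adjusted p = 0.0668, or 0.0497) had lower ones.

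For 8 of the 17 genes described above as lower in NF1 RNAi cells, the values of the inhibitor comparison are set beside those already given. The differences in NF1 RNAi + U0126 against NF1 RNAi were 0.04 ± 0.09 for Uqcrfs1, −0.16 ± 0.06 for Uqcr11, 0.03 ± 0.06 for Ndufv1 and 0.06 ± 0.07 for Ndufs8. They were −0.09 ± 0.08 for Ndufa2, −0.06 ± 0.06 for Atp5mc3, −0.00 ± 0.06 for Atp5po and −0.03 ± 0.05 for Cyc1. None of these 8 passed the test, which does not show that the levels were equal. Of the rest, Ndufaf4 passed, with a rise, and its values are given above with those of Ndufaf8 and Atp5if1. Ndufa11 (−0.10 ± 0.07), Ndufa9 (−0.12 ± 0.06) and Ndufb6 (−0.02 ± 0.06) did not pass. Neither did Cox5a (−0.21 ± 0.07), Cox6b2 (0.25 ± 0.24) or Atp5f1b (−0.06 ± 0.05). In complex II, Sdha differed by −0.20 ± 0.07 and Sdhd by 0.12 ± 0.07, and neither passed. Complex III and complex IV had no gene that passed. Their smallest unadjusted p-values belonged to Uqcr11 (adjusted p = 0.13) and to Cox8b (adjusted p = 0.08).

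**Figure D3:**
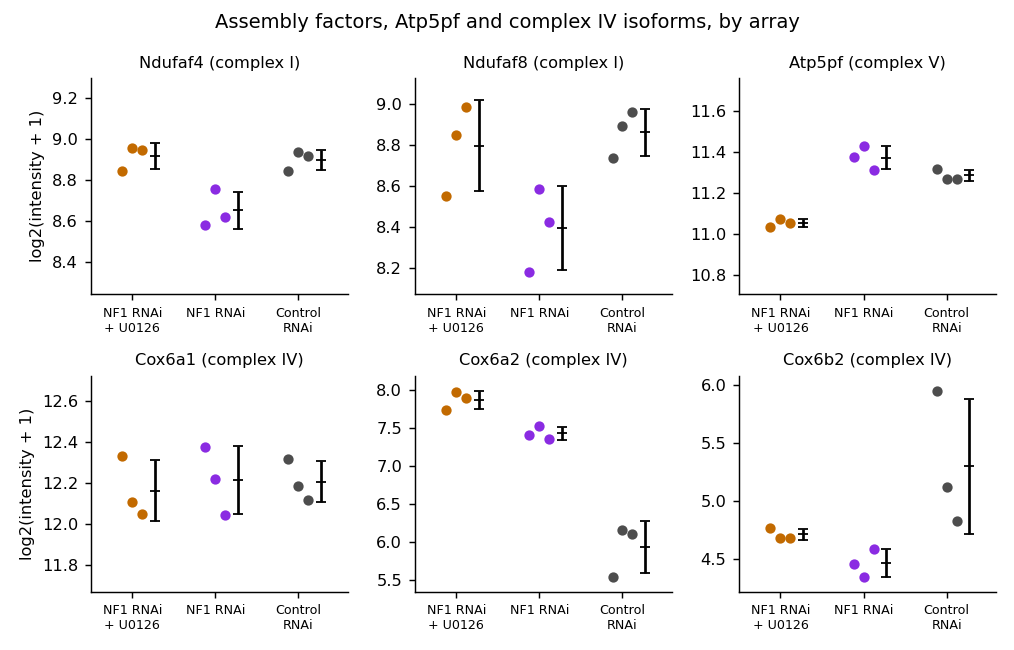
Intensities on the log2(intensity + 1) scale (y axis) of 6 genes by group (x axis), with 1 point per array and the mean ± SD of 3 arrays beside it. Ndufaf4 and Ndufaf8 have their lowest means in NF1 RNAi cells, Atp5pf is lowest with U0126, Cox6a2 is highest with U0126, and Cox6a1 overlaps in all groups. Axes differ between panels and do not start at 0.

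Against Control RNAi, cells given both NF1 RNAi and U0126 had 20 lower and 5 higher oxidative phosphorylation transcripts. The 20 are 23.0% of the 87 genes, beside 17.6% of all genes, and the 5 are 5.75%, beside 17.9%. In either direction 28.7% passed, beside 35.5% of all genes. With a filter at log2 6 in 3 arrays, 26 of the 82 genes left of the 87 passed, beside 48.4% of all 10159 genes left. Here too the share of them that fell is not given. The arrays did not overlap for 46 genes, or 52.9%, beside 47.2% of all genes. The median difference was −0.06 over the 87 genes and 0.04 over all genes. This comparison uses the Control RNAi arrays of the first comparison and the inhibitor-treated arrays of the second, so its values are not independent of either. Without Control RNAi replicate 1, 18 genes fell and 6 rose, with 35.8% of all genes passing in either direction. The genes that rose numbered 2 without Control RNAi replicate 3, and 3 without Control RNAi replicate 2 or NF1 RNAi + U0126 replicate 1 or 2. In these fits 28.9% to 31.9% of all genes passed in either direction.

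The falls lay in all 5 complexes, with 9 of 42 genes in complex I, 1 of 4 in complex II, 3 of 8 in complex III, 1 of 17 in complex IV and 6 of 16 in complex V. In complex III the genes that fell were Uqcr11 (−1.11 ± 0.06, adjusted p = 7.04e-06), Uqcrfs1 (−0.80 ± 0.09, adjusted p = 0.000166) and Cyc1 (−0.20 ± 0.05, adjusted p = 0.0207). Uqcr11 stood at 46.4% of the Control RNAi mean. The Cyc1 call was lost without replicate 1 or 2 of either group (adjusted p up to 0.0629).

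In complex I the falls included Ndufa2 (−0.63 ± 0.08), Ndufv1 (−0.40 ± 0.06), Ndufs8 (−0.40 ± 0.07) and Ndufa11 (−0.39 ± 0.07). The smaller falls were Ndufa9, Ndufb3, Ndufb6, Ndufa5 and Ndufa8, between −0.37 and −0.20. Ndufb3, a membrane-arm subunit, had 2629, 2772 and 2632 in NF1 RNAi + U0126 cells, 3033, 3140.5 and 2967 in NF1 RNAi cells and 3551, 3219 and 3171 in Control RNAi cells. The Ndufa5 call was lost without any 1 Control RNAi array or NF1 RNAi + U0126 replicate 2 or 3 (adjusted p up to 0.0969). The Ndufa8 call was lost without Control RNAi replicate 2 or 3 or NF1 RNAi + U0126 replicate 1 (adjusted p up to 0.0675). The assembly factor Ndufaf3 rose (0.32 ± 0.06, adjusted p = 0.00395), as did the small membrane-arm subunit Ndufc1 (0.27 ± 0.08, adjusted p = 0.0282). The Ndufc1 call was lost without Control RNAi replicate 2 or 3, or NF1 RNAi + U0126 replicate 1 or 3 (adjusted p up to 0.0915).

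Complex II had 1 fall, in Sdha (−0.28 ± 0.07, adjusted p = 0.0136), whose NF1 RNAi + U0126 arrays were below all others. Sdhb (0.01 ± 0.09), Sdhc (−0.08 ± 0.06) and Sdhd (0.09 ± 0.07) did not pass. In complex IV, Cox6a2 rose to 383% of the Control RNAi mean (1.94 ± 0.15, adjusted p = 2.96e-05) and Cox5a fell (−0.50 ± 0.07, adjusted p = 0.000844). The muscle form Cox8b (0.27 ± 0.08, adjusted p = 0.0265) and the pseudogene Cox6c-ps1 (0.28 ± 0.08, adjusted p = 0.0281) were called higher at very low intensities. Cox8b had 28.8, 32.7 and 26.4 in NF1 RNAi + U0126 cells, 24.8, 24.2 and 24.5 in NF1 RNAi cells and 24.8, 24.8 and 22.5 in Control RNAi cells. The Cox8b call was lost without Control RNAi replicate 3 or NF1 RNAi + U0126 replicate 1 or 2 (adjusted p up to 0.0864). The Cox6c-ps1 call was lost without replicate 2 or 3 of either group (adjusted p up to 0.1).

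Complex V had falls in Atp5if1 (−0.73 ± 0.08, adjusted p = 0.000134), Atp5mc3 (−0.44 ± 0.06, adjusted p = 0.000745) and Atp5po (−0.30 ± 0.06, adjusted p = 0.00502). Atp5f1b (−0.26 ± 0.05), Atp5mf (−0.24 ± 0.06) and Atp5pf (−0.23 ± 0.05) fell less. The inhibitor gene Atp5if1 stood at 60.2% of the Control RNAi mean. The median difference of complex V was −0.14, beside −0.05 in complex I, −0.03 in complex II, −0.14 in complex III and 0.04 in complex IV. With the replicate number as a block, 6 more genes passed. Ndufb2 (adjusted p = 0.043), Ndufs4 (0.0298), Uqcrq (0.0129) and Cox7b (0.0231) were lower, and Cox5b (0.032) and Atp5mpl (0.0439) were higher.

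**Figure D4:**
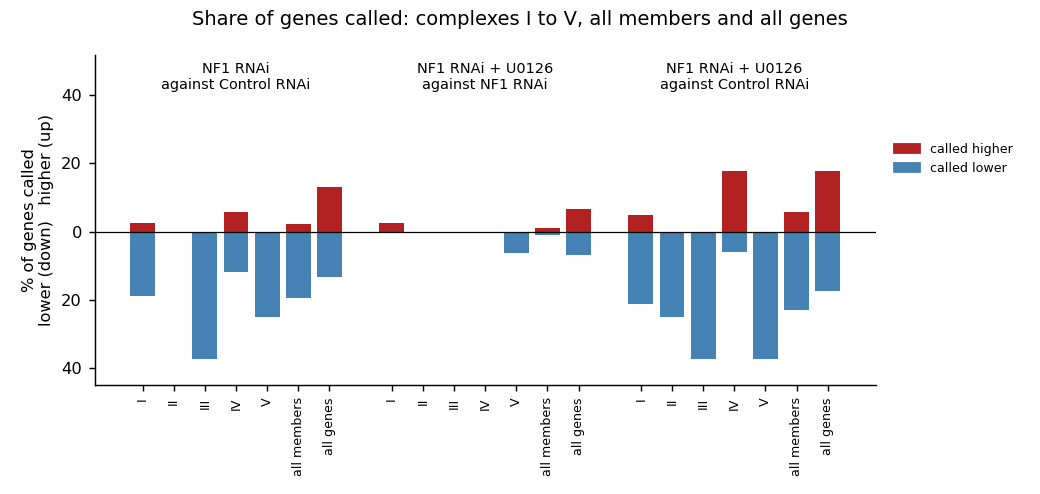
Percentage of genes called higher (red, upwards) and lower (blue, downwards) in each comparison, for complexes I to V, all 87 members and all 14213 genes (x axis). In both comparisons with Control RNAi the members have a larger blue share than all genes (19.5% and 23.0%, beside 13.3% and 17.6%) and a smaller red one. Of all genes 10159 reached log2 6 in 3 arrays, and of the members 82, so the 2 sets differ in brightness. With a filter at that level, 37.7% and 48.4% of all genes left passed in either direction in the 2 comparisons with Control RNAi. The share called lower among those genes is not given, so the blue shares are not set against genes of like brightness.

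Transcripts encoded in mitochondrial DNA were looked at after their values were seen. COX1 and COX2 encode core subunits of complex IV. COX1 had 24655, 24655 and 25800.2 in NF1 RNAi + U0126 cells, 25398, 24332 and 24655 in NF1 RNAi cells and 24655, 24655 and 23226 in Control RNAi cells. The value was the same on 5 arrays. RMA gives arrays a common set of values by quantile normalisation, and whether this narrows differences of such bright probe sets was not tested. COX2 had 23954, 23836 and 23756 in NF1 RNAi + U0126 cells, 23385, 23132 and 23450.2 in NF1 RNAi cells and 22586, 22169 and 21854 in Control RNAi cells. Neither passed in any comparison, and in NF1 RNAi against Control RNAi the differences were 0.04 ± 0.05 for COX1 and 0.07 ± 0.05 for COX2.

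Of 16 measured regulators of mitochondrial gene expression, 2 fell and 2 rose in NF1 RNAi against Control RNAi. These 4 are a share near the 26.3% of all genes. Pprc1, a coactivator of the PGC-1 family that works with NRF1, had 150.4, 165 and 201 in NF1 RNAi + U0126 cells, 173, 195 and 202 in NF1 RNAi cells and 300.5, 282 and 360.1 in Control RNAi cells (−0.72 ± 0.13, adjusted p = 0.0034). Gabpa, the DNA-binding subunit of GABP that reads the ETS motif, had 741, 738 and 757 in NF1 RNAi + U0126 cells, 845, 887 and 916 in NF1 RNAi cells and 1067, 1189.6 and 1054 in Control RNAi cells (−0.32 ± 0.06, adjusted p = 0.00632). Both had their lowest arrays among cells given U0126. The nuclear receptor Esrra (0.39 ± 0.09, adjusted p = 0.0145) and the mitochondrial DNA polymerase subunit Polg2 (0.38 ± 0.12, adjusted p = 0.0414) rose. The Esrra call was lost without NF1 RNAi replicate 1 (adjusted p = 0.0551), and the Polg2 call without any 1 array other than Control RNAi replicate 3 (adjusted p up to 0.104).

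In NF1 RNAi + U0126 against NF1 RNAi, 4 of the 16 passed, beside 13.7% of all genes. Polg (−0.44 ± 0.07), Gabpb1 (−0.35 ± 0.07), the other GABP subunit, and Gabpa (−0.24 ± 0.06) fell. Ppargc1a, the PGC-1 alpha coactivator, rose (0.33 ± 0.07, adjusted p = 0.0154). The Gabpa call there was lost without any 1 array of these groups (adjusted p up to 0.113) and the Ppargc1a call without NF1 RNAi + U0126 replicate 2 (adjusted p = 0.0606). Against Control RNAi, 5 of the 16 fell and 5 rose in NF1 RNAi + U0126 cells (62.5%, beside 35.5% of all genes). Nrf1 and Yy1, named after their values were seen, differed by −0.22 ± 0.07 and 0.04 ± 0.05 in NF1 RNAi against Control RNAi, and neither passed, though Nrf1 did in that comparison with the replicate number as a block (adjusted p = 0.0165).

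Assembly factors outside the name rule were called in both directions. In NF1 RNAi against Control RNAi, where 13.0% of all genes rose and 13.3% fell, 3 of 19 measured complex IV factors rose and 5 fell (42.1%, beside 26.3% of all genes), with the copper chaperone Cox17 higher (0.53 ± 0.11) and Coa5 lower (−0.97 ± 0.19). Coa5 had 679, 955 and 972 in NF1 RNAi + U0126 cells, 688, 996 and 967 in NF1 RNAi cells and 1409.6, 1863 and 1893 in Control RNAi cells, which do not overlap between NF1 RNAi and Control RNAi. Of 10 factors for complexes II and III, Sdhaf2 (0.47 ± 0.08) and Sdhaf3 (0.29 ± 0.08), which help mature complex II, rose. Sdhaf1 (−0.27 ± 0.08), also a complex II factor, and Bcs1l (−0.28 ± 0.06) fell. Sdhaf1 was named after its values were seen, and its call was lost without Control RNAi replicate 1 or 2 or NF1 RNAi replicate 3 (adjusted p up to 0.0962). Bcs1l inserts the Rieske protein into complex III. The shares were 50.0% of 4 complex V factors and 12.5% of 8 complex I factors. Of the complex V factors, Atpaf1 (0.49 ± 0.08) and Atpaf2 (0.26 ± 0.07) rose, and of the complex I factors, Timmdc1 alone rose (0.17 ± 0.05). The Timmdc1 call was lost without any 1 array (adjusted p up to 0.149) and with the replicate number as a block (adjusted p = 0.0572). The calls of Sdhaf3 and Atpaf2 were lost without Control RNAi replicate 2 or 3 or NF1 RNAi replicate 1 or 2 (adjusted p up to 0.0876 and 0.0888).

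Pathways that feed or surround the respiratory chain were counted in the same comparison, beside 13.0% of all genes that rose and 13.3% that fell. Of 18 genes of pyruvate dehydrogenase and the tricarboxylic acid cycle, 2 rose and 6 fell (44.4% called, beside 26.3% of all genes), among them the succinyl-CoA ligase genes Suclg1 (−0.39 ± 0.09) and Suclg2 (−0.39 ± 0.07). Of 15 genes of coenzyme Q synthesis and its electron donors, 2 rose and 4 fell. Gpd2, the glycerol phosphate dehydrogenase of the inner membrane, had 56.1, 55.6 and 51.5 in NF1 RNAi + U0126 cells, 61.0, 55.5 and 48.7 in NF1 RNAi cells and 144, 107 and 108 in Control RNAi cells (−1.10 ± 0.12, adjusted p = 0.000381). Its arrays with NF1 RNAi were all far below Control RNAi.

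Of 9 carriers, porins and uncoupling proteins, 1 rose and 4 fell (55.6% called, beside 26.3% of all genes). The one that rose was Ucp2, an uncoupling protein family member (0.86 ± 0.20, adjusted p = 0.013), and the ADP/ATP carriers Slc25a5 (−0.30 ± 0.08) and Slc25a4 (−0.25 ± 0.07) fell. Both carrier calls were lost without any 1 NF1 RNAi array, and that of Slc25a4 also without Control RNAi replicate 1 or 3 (adjusted p up to 0.0619 and 0.1). Of 15 protein import genes 3 rose and 2 fell (33.3%), with the import channel isoforms in opposite directions, Timm17a higher (0.46 ± 0.06) and Timm17b lower (−1.25 ± 0.11). Of 7 mitochondrial antioxidants only the thioredoxin Txn2 passed (−0.47 ± 0.06), which is 14.3%. Of 73 mitochondrial ribosomal proteins 8 rose and 19 fell (37.0%), with a median of −0.07, between −0.48 for Mrpl23 and 0.63 for Mrpl3.

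In NF1 RNAi + U0126 against NF1 RNAi, 6.71% of all genes rose and 7.02% fell, and the lists lay on both sides of the 13.7% that this makes. Of 73 mitochondrial ribosomal proteins 7 rose and 0 fell (9.59%), among them Mrpl15 (0.49 ± 0.10) and Mrps35 (0.47 ± 0.07). Of 7 antioxidants 3 rose (42.9%), the selenoenzymes Txnrd2 (0.43 ± 0.07) and Gpx4 (0.31 ± 0.08) and the manganese superoxide dismutase Sod2 (0.28 ± 0.07). Of 10 complex II and III factors, Uqcc2 (0.50 ± 0.09) and Sdhaf4 (0.46 ± 0.12) rose. Of 15 protein import genes 1 rose (6.67%). Of 9 carriers 1 passed (11.1%), and of 15 coenzyme Q genes 2 (13.3%). The carrier Slc25a5 rose (0.34 ± 0.08), the coenzyme Q factor Coq8b rose (0.46 ± 0.06) and Etfdh, which passes electrons from fatty acid oxidation to ubiquinone, fell (−0.36 ± 0.06). The calls of Gpx4, Sod2, Sdhaf4 and Slc25a5 were each lost without NF1 RNAi replicate 2 or 3 and without some other arrays of these groups (adjusted p up to 0.0923, 0.0847, 0.0991 and 0.0666). In the limma fit without a block, no gene passed among complex I, IV and V assembly factors outside the name rule or the tricarboxylic acid cycle list. With the replicate number as a block, 3 of 19 complex IV factors passed, Cox19 higher (adjusted p = 0.0107) and Sco1 (0.0377) and Surf1 (0.039) lower. So did 2 of 18 tricarboxylic acid cycle genes, Ogdh higher (adjusted p = 0.0425) and Mdh2 lower (0.0392), and a second carrier, Vdac1, lower (adjusted p = 0.0355). These genes were named after their values were seen.

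Against Control RNAi, NF1 RNAi + U0126 cells had more calls in most of these lists than NF1 RNAi cells, as over all genes (35.5%, beside 26.3%). Of 73 mitochondrial ribosomal proteins 12 rose and 21 fell (45.2%), of 18 tricarboxylic acid cycle genes 4 rose and 7 fell (61.1%), and of 19 complex IV factors 4 rose and 6 fell (52.6%). Of the genes named above, Timm17a (0.72 ± 0.06) and Cox17 (0.71 ± 0.11) rose and Timm17b (−1.12 ± 0.11), Gpd2 (−1.11 ± 0.12) and Coa5 (−0.99 ± 0.19) fell. The lists were chosen with earlier results of these arrays known, and their counts are given as a description.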

How the data were processed

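Total RNA of 9 cultures was hybridised to Affymetrix rat arrays. The deposited table holds 1 linear intensity per probe set and array, made by the authors with RMA, per the submitters' processing notes. No source used here gives the software version, the probe set definition or the genome build. Of 31099 probe sets, 57 controls were left out, and 20826 of the others were annotated to 1 gene, 436 to several and 9780 to none listed. Symbols were updated through the RefSeq gene table of GRCr8 by gene ID (20758), accession (2), symbol (53) or older symbol (9), and 4 were kept. Groups were compared on log2(intensity + 1), which understates differences of dim probe sets, in R 4.3.3 using the lmFit and eBayes steps of limma 3.58.1. The model held group means over 9 arrays, p-values were adjusted over 14213 genes (Benjamini-Hochberg), and 0.05 was the threshold, without a fold limit. The fit was tested on simulated data. Precision is limited by the number of arrays.

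The labels number replicates 1 to 3 in each group. Deviations from group means of arrays with the same number correlated in all 9 pairs (r of 0.17 to 0.62). The 18 other pairs ran from −0.52 to 0.40. Among these, arrays numbered 2 and 3 correlated with each other across groups (r of 0.14 to 0.40), so the data mainly set replicate 1 apart. Neither the labels nor these values show that the numbers pair the samples. The main counts, differences and standard errors therefore come from the fit without a block. A fit with the number as a block is given where it changes a call of an oxidative phosphorylation gene. For the pathway lists, some changed calls are named and all are counted in the closing section. Marker calls also changed with it. In NF1 RNAi against Control RNAi it called 2 Schwann cell markers, not 1, and 7 G2 and mitosis genes, not 5. In NF1 RNAi + U0126 against Control RNAi it called 5 Schwann cell markers, not 3, 2 muscle markers, not 1, and 1 neuron marker, not 0. In NF1 RNAi + U0126 against NF1 RNAi it called 3 fibroblast markers, not 2. Genes and lists were chosen with earlier results of these data known. Genes named were Nf1, all of complex II, Cyc1, isoform pairs, the brightest gene of each complex, up to 4 rises and 4 falls per complex and comparison or the smallest p, and up to 3 calls per pathway list and comparison. Alternatives are given in the closing section. Figures used matplotlib 3.10.9, and tables pandas 2.3.3.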

Additional observations from a re-analysis of the deposited data

How the results depend on the processing

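Of the named results on single genes, 2401 values stayed on their side of the threshold with the same direction, 114 lost and 44 gained a call, and none reversed. In NF1 RNAi against Control RNAi (2 higher, 17 lower), an adjusted p under 0.01 left 1 higher and 8 lower, and a 2-fold limit 1 higher and 0 lower. Array weights, whose estimation stopped before its tolerance was met, gave 9 higher there, 4 higher and 8 lower in NF1 RNAi + U0126 against NF1 RNAi, and 9 higher in NF1 RNAi + U0126 against Control RNAi. In either direction they called 30, 12 and 39 of the 87 genes, beside 42.1%, 22.9% and 49.5% of all genes. Without the assembly factors 1 gene was higher in NF1 RNAi against Control RNAi and 0 in NF1 RNAi + U0126 against NF1 RNAi. In that last comparison (1 higher, 1 lower), the replicate block gave 4 higher and 3 lower. A filter at log2 6 in 3 arrays gave 3 lower, as did an intensity trend with robust eBayes. In these 3 fits 19.6%, 20.7% and 14.2% of all genes tested passed in either direction. The 2 groups alone gave 2 higher, leaving out all replicate 1 arrays gave 3 higher and 2 lower, a stricter adjusted p gave 0 higher, and a 2-fold limit 0 in each direction. Over all genes, 14.6% passed with the 2 groups alone and 18.4% without all replicate 1 arrays. In NF1 RNAi + U0126 against Control RNAi (5 higher, 20 lower), quantile normalization gave 8 higher, a stricter adjusted p 2 higher, and a 2-fold limit 1 in each direction. Quantile normalization called 37.0% of all genes there. Leaving out 1 array at a time gave 1 to 3 higher and 11 to 16 lower in NF1 RNAi against Control RNAi, 0 to 2 higher and 1 to 3 lower in NF1 RNAi + U0126 against NF1 RNAi, and 2 to 6 higher and 17 to 21 lower in NF1 RNAi + U0126 against Control RNAi. The lowest count of 11 was without NF1 RNAi replicate 1. Over all genes, 19.6% to 26.4%, 7.81% to 18.2% and 28.9% to 35.8% passed in these fits, in the same order of comparisons. Of the medians, 391 moved by less than the spread of arrays and 5 by more. These were complex II in NF1 RNAi against Control RNAi without 1 array in turn (−0.081 without Control RNAi replicate 1 to −0.027 without replicate 3), complex IV with the filter in NF1 RNAi + U0126 against NF1 RNAi (−0.0063) and against Control RNAi (0.072), and complex I in NF1 RNAi + U0126 against Control RNAi with quantile normalization (−0.015) or without all replicate 1 arrays (−0.019). The filter removes the 5 dim genes of complex IV, and the other causes were not tested. The Atp5po call in NF1 RNAi against Control RNAi was lost when its probe sets were averaged. Among the 87 genes the replicate block changed no call beyond those given with the results. Among the 194 genes of the pathway lists it lost 3 and gained 9 calls in NF1 RNAi against Control RNAi, lost 0 and gained 9 in NF1 RNAi + U0126 against NF1 RNAi, and lost 1 (Timmdc1, adjusted p = 0.0509) and gained 8 in NF1 RNAi + U0126 against Control RNAi.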
